A study of Mus musculus with 4 samples.

Results

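The cells described here are the capillary endothelial cells of the mouse brain hemisphere on the side of an ischemic stroke, the flat cells that form the wall of the smallest vessels. They were picked by their own transcripts. A cell was a member when it held at least 5 UMIs (unique molecular identifiers, each standing for 1 captured RNA molecule) of the endothelial genes Cldn5, Pecam1, Cdh5, Flt1 and Ly6c1 together, at most 2 of the microglial genes P2ry12, Tmem119, P2ry13, Gpr34, Olfml3 and Fcrls, and no UMI of the leukocyte gene Ptprc. It also held at most 1 UMI of the arterial genes Gkn3, Bmx, Sema3g, Efnb2 and Hey1 and at most 2 of the venous genes Vwf, Vcam1, Ackr1, Selp, Sele and Nr2f2. Cells needed at least 500 UMIs and 300 genes, and at most 20% of UMIs from mitochondrial genes. The rule kept 3658 of the 55902 cells that passed these 3 limits. The levels of the genes named in the rule chose the members and are given only as a description.

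Wild-type mice had a stroke, and at day 5 hydrogel microspheres were placed in the infarct cavity. The ipsilateral hemisphere was taken at day 14, dissociated with collagenase IV, papain and DNase I, freed of red cells and dead cells, and run as single-cell RNA sequencing. The 4 groups, 1 library each, were microspheres alone (MAPS), microspheres carrying extracellular vesicles of astrocytes with the label UT (UT EV), microspheres carrying vesicles of astrocytes with the label IL-1a TNFa C1q (IL-1a/TNFa/C1q EV), and microspheres carrying vesicles of astrocytes with the label IL-4 C1q (IL-4/C1q EV). MAPS and UT are not spelled out in the labels, and the number of animals behind a library is not given. Healthy mice that the labels mention were not analysed here. Vascular remodeling and immune recruitment were among the questions the study set. With 1 library a group there is no test between groups: the intervals below cover counting error only, and a difference between treatments cannot be told apart from a difference between animals or libraries.

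Endothelial cells of brain capillaries form the blood-brain barrier. Tight junctions seal the cleft between them, solute carriers let glucose, amino acids and thyroid hormone through, ABC exporters pump foreign compounds back to the blood, and low transcytosis, held down by the lipid transporter Mfsd2a, limits passage through the cell; Wnt signalling from the brain keeps this program on. Endothelial cells also answer interferons. Type I interferon, bound by Ifnar1 and Ifnar2, activates the kinases JAK1 and TYK2 and a transcription factor complex that holds STAT2 and IRF9, which binds a short DNA element before interferon-stimulated genes; interferon gamma has its own receptor and is best known for the guanylate-binding proteins and the immunity-related GTPases (IRGs).

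The members carried the transcripts of the capillary wall. Values are UMIs of a gene per 1000000 UMIs of the members (CPM). Wherever 4 values follow a gene, they are in the order MAPS, then UT EV, then IL-1a/TNFa/C1q EV, then IL-4/C1q EV; where 3 follow, MAPS is left out. The tight junction gene Cldn5 stood at 5117, 6483, 5951 and 7831, the VEGF receptor Flt1 at 4646, 2243, 1788 and 2588, and the surface protein gene Ly6c1 at 3481, 5997, 5679 and 5791. The adhesion molecule Pecam1 stood at 733, 374, 309 and 386 and the adherens junction cadherin Cdh5 at 606, 219.7, 164 and 253. Mfsd2a, the lipid transporter and a capillary marker that the rule did not use, stood at 301, 149, 130.2 and 202. All 20 further endothelial genes on a list, among them Tek, Kdr, Erg and Emcn, passed a mean of 50 CPM over the 4 libraries, the limit used here for calling a gene measured (3048 of 55357 genes). In cells thinned to 1000 UMIs each, 20.0, 12.7, 13.7 and 17.3% of the members held a UMI of Mfsd2a, against 0.336, 0.160, 0.0890 and 0.235% of microglia in the same libraries; without thinning the members' shares were 43.4, 26.3, 26.7 and 31.2%. Median UMIs were 2659, 1863, 2004 and 1828 in the members and 4753, 2979.5, 2667 and 2727 in the microglia. Of the markers of other vessels, Plvap, the diaphragm protein of fenestrated vessels, stood at 131, 3.36, 0.757 and 1.58 CPM, from 31, 9, 2 and 5 UMIs, and was highest in MAPS. The lymphatic gene Lyve1 gave 0, 1, 0 and 2 UMIs.

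Some genes outside the rule separated the members from arterial and venous cells in the 3 vesicle libraries. Those gates held 96 to 133 and 82 to 149 cells there. The venous gate was mixed. Choroid plexus and ependymal genes summed to 27979, 26632 and 18096 CPM in it, beside 969, 3842 and 1474 in the members. Its median cell had 5261, 6163 and 4760 UMIs. The part of such transcripts and of depth in the ratios to venous cells was not tested. Carbonic anhydrase 4 (Car4), on the capillary surface, was 6.56, 5.36 and 6.80 times as high in the members as in arterial cells of the 3 vesicle libraries, and the lactate transporter Slc16a1 3.19, 4.17 and 3.14 times. The arterial-side genes Mgp and Tm4sf1 ran the other way, at 0.0592, 0.112 and 0.136 times and 0.277, 0.254 and 0.286 times the arterial level. Against venous cells, Rgcc was 3.23, 3.68 and 3.21 times as high and the chemokine Cxcl12 4.33, 3.95 and 4.28 times. The adhesion molecule Icam1 was at 0.207, 0.227 and 0.200 times the venous level. The glutamine transporter Slc38a5, which is on the list of capillary genes, went against that list. It was at 0.444, 0.334 and 0.228 times the venous level.

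The libraries were not alike. The members numbered 83, 1154, 1020 and 1401 and gave 235879, 2681515, 2642046 and 3174483 UMIs, with medians of 2659, 1863, 2004 and 1828 UMIs a cell. Kept cells of the IL-1a/TNFa/C1q EV library began at 1233 UMIs and those of the other 3 at 500, so 18, 210, 0 and 282 members lay under 1000 UMIs. Scrublet called 4.82%, 4.16%, 7.75% and 6.71% of the members doublets, and they were kept. No barcode was a member in more than 1 library, and 41 members' barcodes were also present as some cell of another library. Transcripts of other cells differed too: haemoglobin genes and Alas2 summed to 2701, 59985, 45814 and 36541 CPM in the members, 14 genes of microglia to 6995, 10476, 14794 and 9873 against 86847 to 167065 in microglia themselves, and choroid plexus genes to 653, 969, 3842 and 1474. At the edge of the rule, 1, 25, 11 and 19 members had an endothelial sum of exactly 5 UMIs, and 1, 24, 10 and 20 cells that met every other limit had 4.

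Of the kept cells of MAPS 0.600% were capillary cells (95% Clopper-Pearson interval 0.478 to 0.743%, 83 of 13833 cells). The share was 9.04% for UT EV (8.55 to 9.55%). For IL-1a/TNFa/C1q EV it was 6.81% (6.41 to 7.23%). The IL-4/C1q EV library had 9.78% (9.30 to 10.3%). MAPS was thus far below the 3 vesicle libraries, and IL-1a/TNFa/C1q EV the lowest of those 3. With the UMI floor of 1233 applied to every library, the shares were 0.502, 7.72, 6.81 and 8.03%. Each share also moves with the number of other cells: the microglial gate held 7473, 4384, 4493 and 4279 cells, and its part in the shares was not tested. Within the endothelial cells, capillary cells were 61.0% in MAPS and 81.9, 84.0 and 82.9% in the vesicle libraries. A capillary cell is one with few arterial and venous UMIs, so this split depends on depth. The median endothelial cell had 3451.5 UMIs in MAPS and 2042, 2190 and 1995.5 in the vesicle libraries. The part of depth in the split was not tested.

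Of all the gene lists, interferon-stimulated genes had the median ratio farthest from 1 in the comparisons among the 3 vesicle libraries, and the libraries came in one order: IL-4/C1q EV highest, UT EV between, IL-1a/TNFa/C1q EV lowest. Of a list of 32 such genes 22 were measured, and all 22 were in that order. Isg15, a ubiquitin-like protein attached to others during an antiviral response, stood at 131, 1566, 594 and 2569 CPM. Bst2 (tetherin), which holds budding virus at the membrane, stood at 182, 935, 581 and 2509, and Ifitm3, which blocks virus entry from endosomes, at 1051, 4209.9, 2751 and 8361. The counting intervals of the 3 vesicle libraries did not overlap for any of these 3 genes, and MAPS was the lowest of the 4. Over UT EV, IL-4/C1q EV was higher by a ratio of 1.64 (1.58 to 1.70) for Isg15, 2.68 (2.56 to 2.81) for Bst2 and 1.99 (1.94 to 2.03) for Ifitm3 (95% interval of the ratio). The IL-1a/TNFa/C1q EV library stood at 0.379 (0.358 to 0.402), 0.622 (0.583 to 0.663) and 0.653 (0.634 to 0.673) times the UT EV level.

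The RNA-binding antiviral proteins of the IFIT family were ordered alike. Ifit1 stood at 174, 161, 63.2 and 313 CPM, Ifit2 at 63.6, 47.0, 12.5 and 135 and Ifit3 at 97.5, 321, 119.6 and 837. Ifit2 had the widest gap between the cytokine-labelled libraries, 10.8 (7.61 to 16.0) times as high in IL-4/C1q EV as in IL-1a/TNFa/C1q EV. Ifit3b, a near copy of Ifit3 whose reads could be split between the pair, stood at 38.2, 99.2, 28.4 and 274. Among the vesicle libraries all 4 IFIT genes were highest in IL-4/C1q EV and lowest in IL-1a/TNFa/C1q EV. The transcription factors of the pathway followed: Irf7, which amplifies type I interferon production, at 114, 148, 66.2 and 355, and Stat2 at 119, 51.1, 34.4 and 90.4. Irf9, the DNA-binding partner of STAT2, differed least among these, at 139.9, 67.1, 51.1 and 89.8. Zbp1, a sensor of unusual nucleic acids, stood at 12.7, 51.8, 25.7 and 162, and the radical SAM enzyme Rsad2 (viperin) at 208, 112, 36.7 and 168. The oligoadenylate synthetase-like gene Oasl2 stood at 119, 77.2, 38.2 and 146, and Usp18, which removes ISG15 from proteins and damps the type I receptor, at 46.6, 69.0, 26.1 and 106. Ifi35, Xaf1 and Rtp4, further genes of the response, stood at 136, 251, 194 and 367, at 106, 252, 153 and 321 and at 136, 178, 99.9 and 242. For some of the genes, among them Ifit1, Ifit2, Irf9, Stat2, Rsad2, Oasl2 and Rnf213, the MAPS level was above that of UT EV, so the place of MAPS in the order varied from gene to gene.

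By count, 16 of the 22 genes were at least 1.5-fold higher in IL-4/C1q EV than in UT EV and none was that much lower, where 2.59% of the 3048 measured genes were higher and 1.41% lower. The median log2 ratio of the list was 0.94, beside 0.00 over all measured genes. In IL-1a/TNFa/C1q EV against UT EV, 19 of 22 were at least 1.5-fold lower and none higher, beside 3.67% and 1.08% of all measured genes (4.76% in either direction), with a median of -1.12 beside -0.03. The call of Ifitm3 there lies close to 1.5-fold and depends on the scaling, given at the end of these results. Between the 2 cytokine-labelled libraries all 22 were at least 1.5-fold higher in IL-4/C1q EV, beside 6.14% of all measured genes (7.45% in either direction), with a median of 2.11. Taken from the median of all genes in each gene's own length bin (4 equal bins by transcript length), the list's medians were 0.93, -1.01 and 2.06. The comparisons share libraries, so each ratio partly fixes the others. Summed over the 32 genes, the level was 3429.7, 9240.3, 5173 and 18285 CPM.

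**Figure D1:**
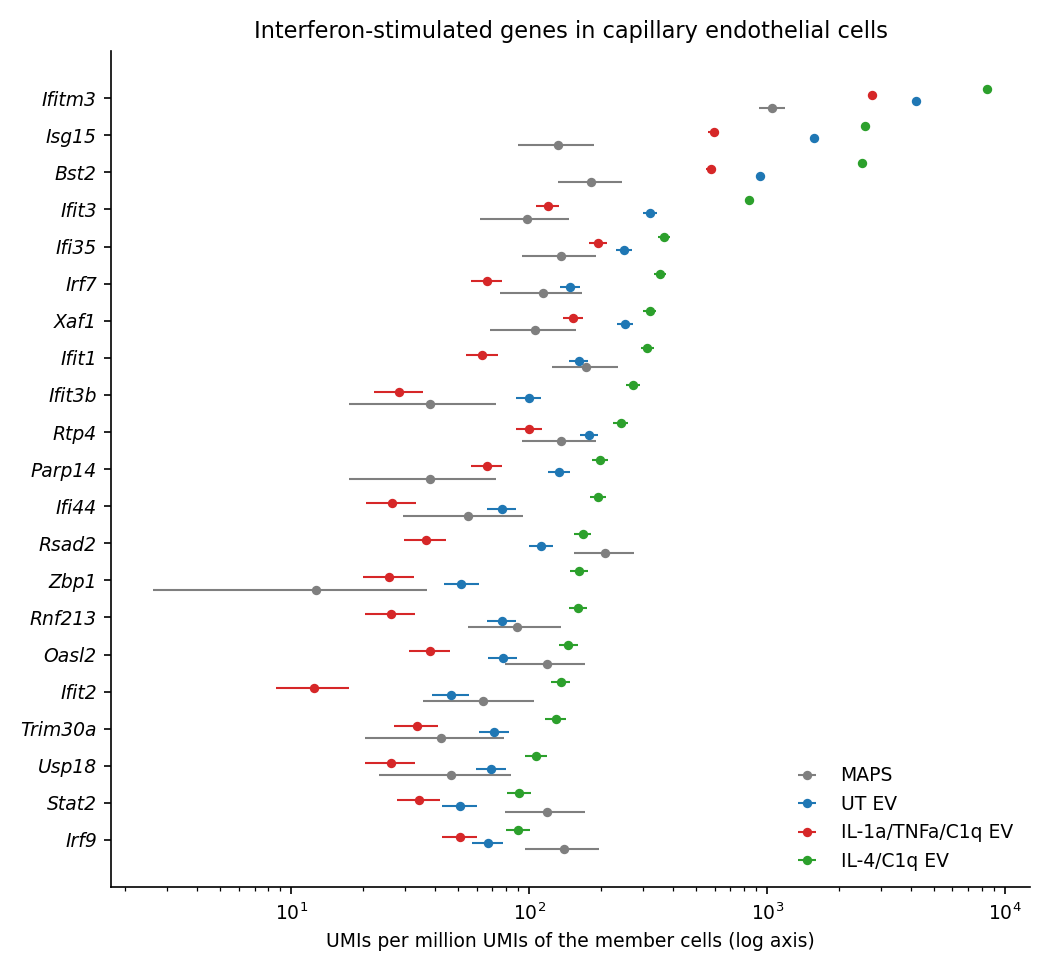
Level of 21 of the measured interferon-stimulated genes in the capillary endothelial cells of the 4 libraries, in CPM on a log axis; bars are exact Poisson 95% intervals, counting error only. For every one of the 21 genes drawn the IL-4/C1q EV point lies right of the UT EV point and the IL-1a/TNFa/C1q EV point left of it.

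Promoter sequence was read for the genes of the list that stood out by level, since these genes share a known DNA element. RefSeq's promoter table (build GRCm38.p6, not the GRCm39 named in the submitters' processing notes) had an entry for 17 of the 22 genes. The letters GAAA, any 2 bases and GAAA again, the core of the interferon-stimulated response element, were searched on both strands in the 250 bases before the start. This string was present for 8 of the 17 genes (47.1%), beside 3.46% of the 27025 genes in the table and 4.03% of the 2457 measured genes with an entry. The 4 stretches below are from the genes with a match and the largest level difference between IL-4/C1q EV and UT EV, Ifit3b being left out because its 60 bases are the same as those of Ifit3. Each is read 5′ to 3′ along the gene's strand, and capitals mark every match on either strand.
Bst2: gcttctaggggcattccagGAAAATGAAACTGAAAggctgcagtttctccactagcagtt
Isg15: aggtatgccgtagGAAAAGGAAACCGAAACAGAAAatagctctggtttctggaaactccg
Ifit3: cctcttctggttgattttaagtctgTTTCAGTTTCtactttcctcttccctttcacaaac
Ifit1: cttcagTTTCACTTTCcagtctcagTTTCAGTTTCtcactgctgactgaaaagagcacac

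The Bst2 stretch is chr8:71537562-71537621 on the minus strand, that of Isg15 chr4:156200850-156200909 on the minus strand, that of Ifit3 chr19:34583382-34583441 on the plus strand and that of Ifit1 chr19:34640779-34640838 on the plus strand. All 4 lie upstream of the annotated start. In Bst2 and Isg15 the matches overlap as a run of GAAA repeats, with 2 and 3 matches. In Ifit3 and Ifit1 they read TTTC on the gene's strand, which is the same element on the other strand: Ifit1 shows both of its matches, and Ifit3 shows 1 of its 2, the other lying outside the stretch. A match is a string of letters in this window and shows no binding. Of the other lists, 6 of 6 guanylate-binding proteins and IRGs with an entry held a match, 2 of 13 genes of MHC class I presentation (15.4%), 0 of 10 junction genes, 0 of 11 solute carriers and 0 of 8 heat shock genes.

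UMIs of interferon-stimulated genes came from most of the cells in each vesicle library. With Ifitm3, which gave the most UMIs, left out of the sum, the median member had 15.0, 47.3, 20.7 and 102 UMIs of the list per 10000 UMIs in the 4 libraries. The 5th to 95th percentiles ran from 0 to 58.6, 8.45 to 128, 2.87 to 68.6 and 36.2 to 193. The 5th percentile of IL-4/C1q EV lay above the median cell of MAPS and that of IL-1a/TNFa/C1q EV, and the ranges of the libraries overlapped. In cells thinned to 1000 UMIs, at least 5 UMIs of these genes were held by 16.9, 53.6, 16.0 and 88.5% of the members, with 65 cells deep enough in MAPS. No UMI of them was found in 23.1, 3.71, 17.6 and 0.894% of the thinned members. Isg15 was found in 10.8, 68.9, 37.3 and 85.2% of thinned members, against 2.19, 7.96, 6.43 and 27.2% of microglia. For Bst2 the shares were 18.5, 57.8, 39.8 and 85.9% of members and 15.1, 36.7, 34.5 and 73.7% of microglia, and for Ifit3 in IL-4/C1q EV 54.0% and 12.3%. Median depths before thinning were those given above. At least 5 UMIs of the list were found in 3.20, 3.03, 2.47 and 35.2% of thinned microglia.

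**Figure D2:**
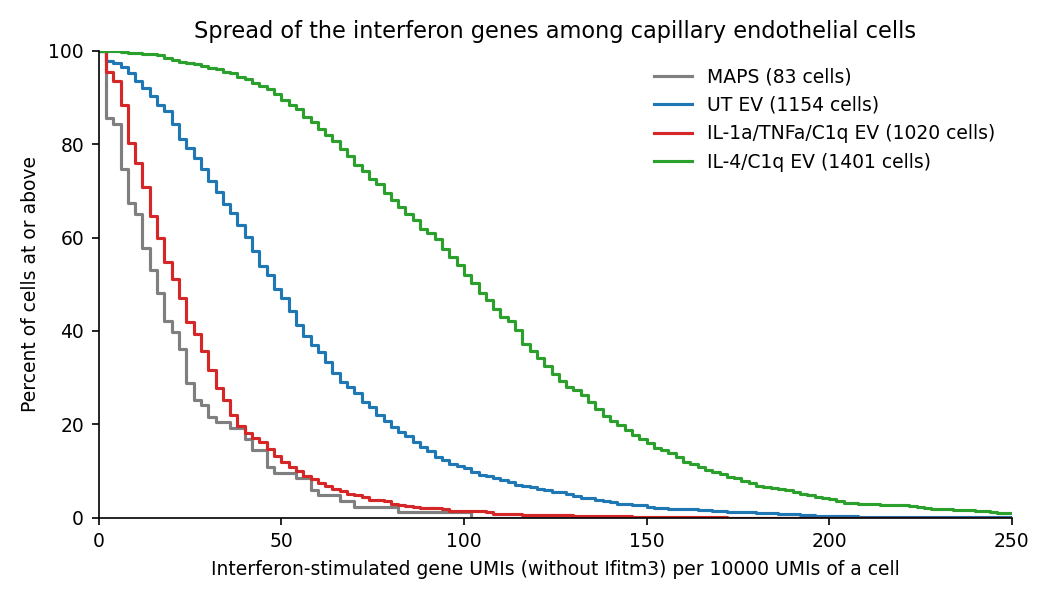
Percent of capillary endothelial cells (y axis) at or above a given level of interferon-stimulated gene UMIs per 10000 UMIs of the cell, Ifitm3 left out (x axis), 1 line a library. The IL-4/C1q EV line lies to the right, with a median cell at 102, the UT EV line between at 47.3, and the IL-1a/TNFa/C1q EV and MAPS lines at 20.7 and 15.0.

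Guanylate-binding proteins and IRGs, GTPases that attack intracellular microbes and are the classic targets of interferon gamma, followed the same order among the vesicle libraries but not in MAPS. Gbp3 stood at 161, 86.9, 43.1 and 137 CPM, Gbp7 at 220.5, 104, 64.0 and 192 and Iigp1 at 148, 121, 48.1 and 193. Gbp2 stood at 102, 57.4, 34.8 and 106, and the IRGs Igtp and Irgm1 at 72.1, 41.8, 27.6 and 67.4 and at 80.5, 45.5, 28.8 and 78.4. Of 14 genes listed 7 were measured. At least 1.5-fold higher in IL-4/C1q EV than in UT EV were 6 of the 7, beside 2.59% of all measured genes. All 7 were at least 1.5-fold lower in IL-1a/TNFa/C1q EV than in UT EV, beside 3.67% (medians 0.69 and -0.72). Among these the call of Igtp lies close to 1.5-fold and depends on the scaling. The MAPS level of Gbp3 was above that of UT EV, whereas the MAPS level of Isg15 was below it, UT EV being 11.9 (8.38 to 17.6) times as high. Summed over the list, the level was 1034, 657, 343 and 1062 CPM, so MAPS and IL-4/C1q EV were close for these GTPases while for the interferon-stimulated genes they stood at 3429.7 and 18285.

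Of the interferon receptors and JAK-STAT genes 9 of 16 were measured, and their spread was smaller. Ifnar1, a chain of the type I receptor, stood at 382, 131, 108 and 188 CPM and was 1.43 (1.25 to 1.64) times as high in IL-4/C1q EV as in UT EV. The other chain, Ifnar2, stood at 288, 304, 301 and 330.1, within a ratio of 1.09 (0.990 to 1.19). Ifngr1, a chain of the interferon gamma receptor, stood at 89.0, 68.2, 88.6 and 63.6. Among the genes of this list past 1.5-fold upward in IL-4/C1q EV over UT EV were Stat2, at 1.77 (1.44 to 2.19), and Stat3, at 1.60 (1.26 to 2.05). Stat2 is also counted among the interferon-stimulated genes.

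Genes of MHC class I presentation, which shows peptides from inside the cell to CD8 T cells, were shifted less: 13 of 20 were measured, with a median log2 ratio of 0.29 in IL-4/C1q EV and -0.21 in IL-1a/TNFa/C1q EV over UT EV. The heavy chain H2-K1 stood at 1140.4, 468, 428 and 593 CPM, the light chain B2m at 1302, 538, 448 and 656, and the immunoproteasome subunit Psmb8 at 144, 446, 377 and 647. Past 1.5-fold in IL-4/C1q EV over UT EV was 1 gene, the peptide-loading chaperone Tapbp, at 1.85 (1.49 to 2.31). Past it in IL-1a/TNFa/C1q EV, downward, was the nonclassical heavy chain H2-T23, at 0.589 (0.524 to 0.661). Class I genes of mice are close copies of each other, and reads may be split among them.

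Arterial and venous endothelial cells showed the order of the capillary cells. The list's median log2 ratio in IL-4/C1q EV over UT EV was 0.91 in both, and in IL-1a/TNFa/C1q EV over UT EV it was -1.11 in arterial and -1.30 in venous cells, beside 0.94 and -1.12 in the capillary cells. The summed level of the 32 genes was 3075, 10879, 7009 and 21734 CPM in arterial and 2921, 9851, 5736 and 20965 in venous cells. In the arterial gate at least 5 UMIs of the list without Ifitm3 were found in 14.3, 60.8, 18.8 and 96.4% of thinned cells, and in the venous gate in 14.3, 59.0, 9.76 and 92.3%. IL-4/C1q EV was the highest and UT EV the next in both gates, as in the capillary cells. The venous gate also held the choroid plexus and ependymal transcripts given above, and their part in its values was not tested.

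Outside the endothelial cells the IL-4/C1q EV library was again the highest for the summed list, and the place of IL-1a/TNFa/C1q EV differed by cell type. It was the lowest vesicle library in microglia and pericytes, as in capillary cells, and not in astrocytes or oligodendrocytes. Summed levels were 1247, 1566, 1353 and 5068 CPM in microglia and 1338, 3017, 2502 and 10584 in pericytes, the contractile cells around capillaries. In both, IL-1a/TNFa/C1q EV lay less far under UT EV than in capillary cells. The pericyte gate held 131, 156, 73 and 175 cells and was mixed. Choroid plexus and ependymal genes summed to 59609, 27069, 30937 and 3206 CPM in it, and microglial genes to 15514, 38575, 41986 and 36262 CPM. Their part in its sums was not tested. In astrocytes the sums were 324, 1005, 2624 and 2845 and in oligodendrocytes 356, 349, 598 and 1188, so there IL-1a/TNFa/C1q EV lay above UT EV. Isg15 in astrocytes stood at 2.20, 71.0, 363 and 338 CPM, Bst2 at 17.7, 91.3, 283 and 374 and Ifitm3 at 70.9, 472, 1132 and 1370.4; capillary cells of the same libraries, at 131, 1566, 594 and 2569 for Isg15, had IL-1a/TNFa/C1q EV under UT EV. The astrocyte gate held 1578, 597, 530 and 551 cells and was mixed too. Microglial genes summed to 20433, 47057, 43570 and 42436 CPM in it. Choroid plexus and ependymal genes summed to 3639, 4322, 6274 and 10654 CPM. The part of these transcripts in the astrocyte values was not tested. Whether the ratio differed between cell types was not tested, since each library was made once.

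**Figure D3:**
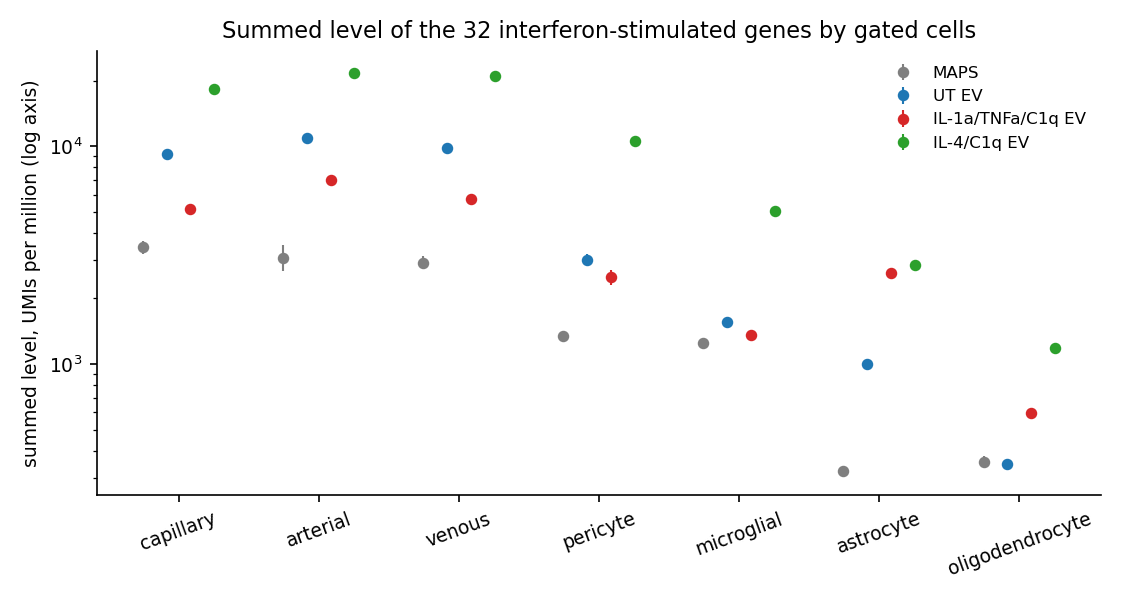
Summed level of the 32 interferon-stimulated genes in 7 gated cell groups (x axis), in CPM on a log axis; points are libraries and bars exact Poisson 95% intervals, many of them smaller than the point. In capillary, arterial and venous cells IL-1a/TNFa/C1q EV lies below UT EV, and in astrocytes and oligodendrocytes above it.

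With UT EV as base few barrier genes passed 1.5-fold among the vesicle libraries. Of 22 junction genes 15 were measured. In IL-4/C1q EV over UT EV 1 passed 1.5-fold, the cadherin-binding catenin Ctnnd1, at 1.51 (1.18 to 1.95), and in IL-1a/TNFa/C1q EV over UT EV none did, with medians of 0.06 and -0.20. Cldn5 was 1.21 (1.18 to 1.23) times as high in IL-4/C1q EV and 0.918 (0.898 to 0.938) times in IL-1a/TNFa/C1q EV, but it is part of the rule. The tight junction protein gene Ocln stood at 305, 109, 88.2 and 104 CPM, the scaffold Tjp1 (ZO-1) at 360.4, 382, 271 and 380.2 and the tricellular junction gene Lsr at 326, 131, 128 and 195. Tjp1 in IL-1a/TNFa/C1q EV was at 0.708 (0.643 to 0.780) times UT EV, and Lsr in IL-4/C1q EV at 1.52 (1.33 to 1.74) times IL-1a/TNFa/C1q EV. Between these 2 libraries 3 of the 15 junction genes were higher past 1.5-fold in IL-4/C1q EV and none lower. They were Ctnnd1 at 1.91, Lsr, and Cdh5, a gene of the rule, at 1.54 times. Of all measured genes 6.14% were higher. The calls of Lsr and Cdh5 lie close to 1.5-fold and depend on the scaling, given at the end of these results.

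Among the solute carriers 16 of 21 were measured, with median log2 ratios of 0.06 in IL-4/C1q EV and -0.19 in IL-1a/TNFa/C1q EV over UT EV. The lactate and ketone transporter Slc16a1 (MCT1) stood at 809.7, 219, 179 and 397 CPM and was the 1 carrier past 1.5-fold in IL-4/C1q EV, at 1.82 (1.65 to 2.01). It was found in 41.5, 19.0, 15.0 and 27.0% of members thinned to 1000 UMIs. The glucose transporter Slc2a1 (GLUT1) stood at 1967, 484, 304 and 500.2 and was the 1 carrier past 1.5-fold in IL-1a/TNFa/C1q EV, at 0.628 (0.575 to 0.686) times UT EV; IL-4/C1q EV was at 1.03 (0.959 to 1.11) times. Between the 2 cytokine-labelled libraries 4 carriers passed 1.5-fold, all higher in IL-4/C1q EV. They were Slc16a1 at 2.21, Slco2b1 at 1.67, Slc2a1 at 1.64 and Mfsd2a at 1.55 times. Of all measured genes 6.14% were higher and 1.31% lower. Scaling by median-of-ratios factors, given at the end of these results, lowers the ratios of this comparison. The call of Mfsd2a lies close to 1.5-fold and depends on the scaling. Mfsd2a was at 1.36 (1.20 to 1.54) times UT EV in IL-4/C1q EV and 0.875 (0.755 to 1.01) times in IL-1a/TNFa/C1q EV, the second interval reaching 1. The large neutral amino acid transporter Slc7a5 (LAT1) stood at 755, 384, 319.8 and 345, the organic anion and thyroid hormone carriers Slco1a4 at 2433, 1095, 891 and 1076 and Slco1c1 at 1382, 627, 488 and 609, and the taurine transporter Slc6a6 at 2383, 584, 510.2 and 626. In the 3 vesicle libraries these 4 lay within 1.5-fold of UT EV.

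Car4, outside the carrier list, went the other way from Slc16a1: it stood at 683, 744, 829 and 430.3 CPM, and IL-4/C1q EV was at 0.578 (0.539 to 0.620) times UT EV while IL-1a/TNFa/C1q EV was at 1.11 (1.05 to 1.18) times. Thinned shares of members with a UMI of Car4 were 38.5, 42.5, 47.7 and 30.8%. Of the 13 measured capillary genes outside the rule, Car4 and Slc16a1 were the genes past 1.5-fold in IL-4/C1q EV over UT EV, 1 in each direction, and the median was -0.11.

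ABC exporters, 4 of 8 measured, gave none past 1.5-fold among the comparisons with UT EV as base: P-glycoprotein (Abcb1a) stood at 1073, 485, 369.8 and 440.4 CPM and the breast cancer resistance protein gene Abcg2 at 729, 1076, 1042 and 907. Of 15 genes for transcytosis and caveolae 11 were measured and none passed 1.5-fold among the 3 vesicle libraries. The transferrin receptor Tfrc stood at 432, 291, 259 and 305, caveolin 1 (Cav1) at 348, 117, 103 and 118 and basigin (Bsg), the partner of MCT1 in the membrane, at 15444, 18710.3, 22260.0 and 21943. Wnt genes, 15 of 21 measured, had 1 gene past 1.5-fold downward in the comparisons with UT EV. It was Fzd4, the receptor for norrin and Wnt7 ligands, at 157, 48.5, 31.8 and 29.6 CPM, 0.611 (0.463 to 0.803) times UT EV in IL-4/C1q EV and 0.656 (0.492 to 0.869) times in IL-1a/TNFa/C1q EV. Its call in IL-1a/TNFa/C1q EV lies close to 1.5-fold and depends on the scaling. The nuclear effector Lef1 stood at 483, 186, 153 and 221, the Wnt inhibitor and target Apcdd1 at 669.8, 223, 194 and 249.8, and the feedback gene Axin2 at 97.5, 71.2, 51.5 and 64.9. In these 3 targets and effectors MAPS was the highest library and the vesicle libraries lay within 1.5-fold of UT EV. The Wnt-dependent transcription factors Foxq1 and Sox17 stood at 865, 305, 246 and 322 and at 513, 299, 244 and 304.

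**Figure D4:**
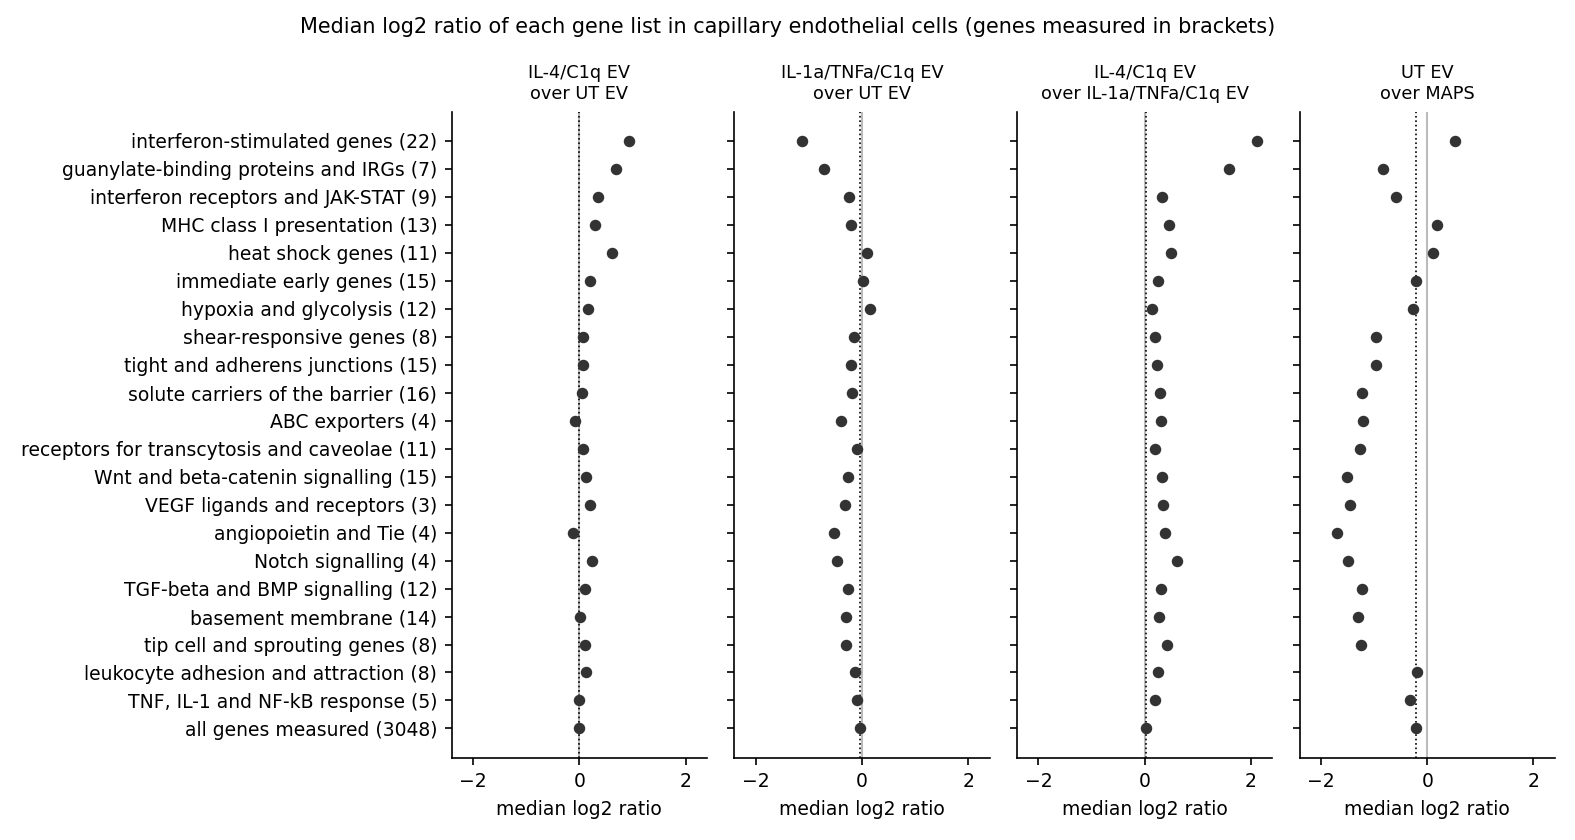
Median log2 ratio of each gene list in the capillary endothelial cells (points) for the 4 comparisons, with the number of measured genes in brackets; the grey line marks 0 and the dotted line the median of all 3048 measured genes. The interferon-stimulated genes lie at 0.94, -1.12, 2.11 and 0.52, and the junction genes at 0.06, -0.20, 0.24 and -0.97.

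Of the 3 measured VEGF genes none passed 1.5-fold with UT EV as base among the vesicle libraries. Kdr (VEGFR2), the main signalling receptor for VEGF-A, stood at 895, 235, 219.9 and 278 CPM and the co-receptor Nrp1 at 331, 121, 84.4 and 108; Flt1, a decoy for the same ligand, is in the rule. The angiopoietin receptor Tek (Tie2) stood at 437, 157, 122 and 150.3, its partner Tie1 at 399, 119, 78.7 and 101, and Foxo1, the factor that Tie2 signalling keeps out of the nucleus, at 157, 45.9, 25.7 and 40.6. MAPS held the highest level of each of these 5 genes. In this list of 4 measured genes, Tie1 and Foxo1 passed 1.5-fold downward in IL-1a/TNFa/C1q EV over UT EV, at 0.662 (0.553 to 0.791) and 0.561 (0.411 to 0.761). Of all measured genes 3.67% did. The call of Tie1 lies close to 1.5-fold and depends on the scaling. Of the markers of sprouting tip cells, Esm1 gave 11, 2, 0 and 0 UMIs, which were 46.6, 0.746, 0 and 0 CPM, and Apln 3, 14, 20 and 11 UMIs. Of the 25 tip cell genes 8 were measured, with medians of 0.10 and -0.29. Adm, adrenomedullin, which widens vessels and is induced by low oxygen, was higher than UT EV in both cytokine-labelled libraries, at 76.3, 64.1, 111 and 141 CPM, by 2.20 (1.84 to 2.63) in IL-4/C1q EV and 1.73 (1.43 to 2.11) in IL-1a/TNFa/C1q EV.

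The Notch ligand Dll4 stood at 127, 33.2, 21.2 and 43.5 CPM, the receptor Notch1 at 263, 94.3, 72.7 and 108 and the target Hes1 at 225, 134, 91.2 and 144. Dll4 was the gene of these 3 past 1.5-fold in IL-1a/TNFa/C1q EV over UT EV, at 0.639 (0.449 to 0.902), and it was 2.05 (1.49 to 2.85) times as high in IL-4/C1q EV as in IL-1a/TNFa/C1q EV. Its call over UT EV lies close to 1.5-fold and depends on the scaling. The inhibitory Smad of TGF-beta signalling, Smad7, stood at 259, 139, 96.1 and 207 and was 1.49 (1.31 to 1.70) times UT EV in IL-4/C1q EV; the BMP targets Id1 and Id3 stood at 1403, 2350.2, 1877 and 2442 and at 1454, 3127, 2642 and 2629. The endothelial transcription factor Sox18 stood at 339, 227, 125 and 253 and was 0.551 (0.480 to 0.631) times UT EV for IL-1a/TNFa/C1q EV. Basement membrane genes, 14 of 19 measured, had none past 1.5-fold in either comparison with UT EV: the collagen IV chains Col4a1 and Col4a2 stood at 496, 192, 142 and 219.6 and at 407, 132, 88.2 and 128, and Sparc at 1954, 1511, 1450.4 and 1484. Between the cytokine-labelled libraries Col4a1, the proteoglycan Agrn and the laminin receptor chain Itga6 were 1.55, 1.73 and 1.71 times as high in IL-4/C1q EV. Of all measured genes 6.14% were higher past 1.5-fold. The call of Col4a1 lies close to that fold and depends on the scaling. Across most of these lists the median in IL-1a/TNFa/C1q EV over UT EV was under 0, from -0.10 for transcytosis to -0.53 for the Tie genes. Longer transcripts were lower in that library over all measured genes too, with a median of -0.22 in the longest of 4 length bins. With the median of its length bin subtracted from each gene, the list medians were 0.06 for transcytosis, 0.05 for the shear-responsive genes, -0.04 for junctions, -0.14 for the carriers, -0.18 for Wnt and -0.37 for the Tie genes.

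Shear-responsive genes, which respond to blood flow, lay within 1.5-fold of UT EV in both cytokine-labelled libraries: Klf2 stood at 1564, 3035, 3367 and 3971 CPM, Klf4 at 835, 377, 282 and 459 and the nitric oxide synthase Nos3 at 331, 106, 103 and 112. Edn1, which makes the constrictor endothelin 1, stood at 195, 162, 117 and 109, and both cytokine-labelled libraries lay below UT EV, at 0.672 (0.582 to 0.776) and 0.719 (0.619 to 0.833) times. Of the 11 measured heat shock genes 6 were higher past 1.5-fold in IL-4/C1q EV over UT EV and none lower, with a median of 0.61. Of all measured genes 2.59% were higher and 1.41% lower. The chaperones Hsp90aa1 and Hsp90ab1 stood at 564, 544, 604 and 855 and at 1679, 2903, 3106 and 4574, with ratios of 1.57 (1.47 to 1.67) and 1.58 (1.53 to 1.62), and the co-chaperones Hsph1 and Dnaja1 had ratios of 2.03 (1.61 to 2.57) and 1.59 (1.48 to 1.72). Hspa1a, the most inducible of the family, did not share this: it stood at 3286, 883, 741 and 882. Immediate early genes, which dissociation can induce, had none past 1.5-fold between IL-4/C1q EV and UT EV, with Fos at 1683, 2166, 1814 and 2267 and Jun at 3735, 2537, 2188 and 2401. Of the hypoxia genes, Ankrd37, a target of HIF-1, stood apart at 25.4, 141, 165 and 430.3 CPM, 3.06 (2.73 to 3.44) times UT EV in IL-4/C1q EV. Of the thinned members of IL-4/C1q EV 30.0% held a UMI of it, and in IL-1a/TNFa/C1q EV 13.8%. The glycolysis genes Pgk1 and Aldoa stood at 72.1, 58.5, 54.9 and 57.6 and at 309, 214, 238 and 242.

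Few of the genes by which inflamed vessels catch leukocytes were measured. Of 20 adhesion and chemokine genes 8 passed the limit, and the cytokine-induced selectins and Vcam1 are in the rule that chose the members. Icam1, which binds leukocyte integrins, stood at 63.6, 50.7, 47.7 and 54.8 CPM, with ratios over UT EV of 1.08 (0.859 to 1.36) and 0.940 (0.732 to 1.21). Cxcl12, which holds cells with the receptor CXCR4, stood at 3773, 4915, 4309.5 and 5384. The NF-kB inhibitor Nfkbia, itself a target of NF-kB, stood at 623, 886, 1037 and 798; of 23 genes of the TNF and IL-1 response 5 were measured, with medians of -0.01 and -0.09. The gene of this list past 1.5-fold among the vesicle libraries with UT EV as base was Nfkb1, 0.643 (0.482 to 0.853) times UT EV for IL-1a/TNFa/C1q EV. Its call lies close to 1.5-fold and depends on the scaling. The fatty acid binding protein Fabp5 stood at 59.4, 351, 441 and 459, and the coagulation genes Thbd and Plat at 161, 43.3, 37.5 and 51.7 and at 271, 143, 129 and 141. UMIs of cell division genes were few: the proliferation marker Mki67 gave 0, 3, 4 and 2 UMIs, and 4 of 20 cell cycle genes were measured.

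MHC class II genes, which present outside peptides to CD4 T cells, were highest in IL-1a/TNFa/C1q EV: Cd74, the invariant chain, stood at 21.2, 289, 478 and 184 CPM, H2-Aa at 8.48, 103, 195 and 86.3, H2-Ab1 at 17.0, 131, 243 and 101 and H2-Eb1 at 4.24, 120.1, 190.0 and 61.1. All 4 measured genes were at least 1.5-fold higher there than in UT EV, beside 1.08% of all measured genes. In the microglia Cd74 was higher than in the members, with the vesicle libraries in the same order, at 1394, 1885 and 788 CPM. Of thinned members, 1.54, 5.30, 8.24 and 4.20% held a UMI of Cd74. The chemokine Ccl5 ran alike, at 29.7, 109, 208 and 88.5 CPM in the members and 329.7, 1263 and 326 in the microglia. The microglial genes moved with them in the members. Of the 11 measured genes of that list 7 were at least 1.5-fold higher in IL-1a/TNFa/C1q EV than in UT EV, beside 1.08% of all measured genes. The list's median log2 ratio was 0.68, and -0.01 when members with over 2% of UMIs from that list were left out. That step removes cells by the same genes, so a fall in this median was built in. The part of microglial RNA in these values was not tested.

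Away from the lists, genes were named where 1 library lay beyond every other the 95% interval of its ratio to the next library being wholly past 1.5-fold. For IL-4/C1q EV there were 18 genes on the high side, led by Zbp1, Bst2, Ifit3, Ifit3b, Ankrd37 and Ifi47, an IRG at 42.4, 44.4, 30.7 and 119 CPM. On its low side there was only the neuropeptide gene Npy, which rested on few cells: it gave 16 UMIs in 10 members of IL-4/C1q EV, and in MAPS 51 of 82 and in IL-1a/TNFa/C1q EV 45 of 57 UMIs came from 1 cell. For IL-1a/TNFa/C1q EV there were 17 genes on the low side, led by Ifit2, the mitochondrial nucleotide kinase Cmpk2 at 50.9, 43.3, 11.7 and 49.8, Rsad2, the ubiquitin ligase Rnf213 at 89.0, 76.8, 26.1 and 161, Ifit1 and Irgm2 at 50.9, 31.3, 9.46 and 52.0. On its high side were 5: Ecrg4 at 0, 54.1, 144 and 50.1, H2-Aa, H2-Ab1, Wfdc17 at 8.48, 16.4, 73.0 and 37.8 and Pf4 at 17.0, 72.7, 133 and 46.6. Ecrg4 is known from the choroid plexus, and the listed choroid plexus genes were also highest in that library; their part in its value was not tested. For UT EV the rule found the histone genes H2ac8 at 0, 58.2, 15.5 and 15.4 and H2ac24 at 12.7, 185, 48.8 and 60.5, both on the high side. The count of 0 in MAPS lies under a floor of 3 UMIs, which is 12.7 CPM in that library. Replication histone genes of this family are near copies.

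Members of the MAPS library, 83 cells, stood apart from the other 3 across the transcriptome. Against MAPS, 28.4% of the measured genes were at least 1.5-fold higher in UT EV and 39.0% lower, 866 and 1189 genes. At a mean of 20 CPM or more the counts were 1193 higher and 3005 lower, and at 100 CPM or more 617 and 492, so that the larger side turned. At the limit used here 782 genes met the rule for a gene set apart on the high side of MAPS and 241 on the low side. Plpp3 and Plpp1, lipid phosphate phosphatases, stood at 399, 43.6, 40.5 and 26.8 and at 263, 45.5, 39.4 and 29.6 CPM, the endothelial multimerin Mmrn2 at 288, 37.7, 36.3 and 43.5, and the transcription factor Zeb1 at 250.1, 32.1, 32.2 and 37.2. Plpp3 and Plpp1 are the 2 measured genes of the list of fenestrated and lymphatic endothelial genes. Both were lower past 1.5-fold in UT EV over MAPS, with a median of -2.86. In each vesicle library both lay under the limit for a measured gene, and they passed it through MAPS alone. A lower level in UT EV than in MAPS was therefore built in for these 2 genes. They were also lower past 1.5-fold in IL-4/C1q EV over UT EV, with a median of -0.66. Plvap of the same list was highest in MAPS too, at 131, 3.36, 0.757 and 1.58 CPM; the part of such cells in the values of MAPS was not tested. On the low side were the ribosomal RNA feature Rn18s-rs5, at 4702, 37546, 26966 and 39393, Chchd2 at 466, 2252, 2445 and 2488 and Isg15. The ratio followed transcript length. By bin of the measured genes, from the shortest to the longest, the median log2 ratio of UT EV over MAPS was 0.87, -0.10, -0.58 and -0.97, and that of IL-1a/TNFa/C1q EV over UT EV was 0.17, 0.02, -0.11 and -0.22. IL-4/C1q EV over UT EV was flat, from -0.03 to 0.02.

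**Figure D5:**
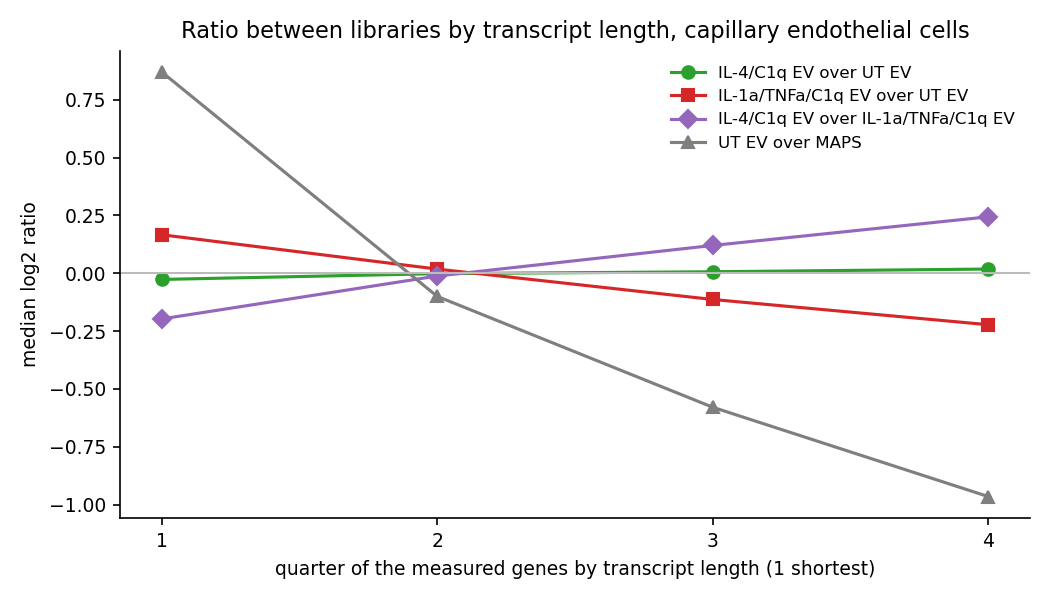
Median log2 ratio of the measured genes in 4 equal bins by transcript length (x axis, 1 shortest) for the 4 comparisons, in the capillary endothelial cells. UT EV over MAPS falls from 0.87 in the shortest bin to -0.97 in the longest, while IL-4/C1q EV over UT EV stays between -0.03 and 0.02.

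Barrier genes were higher in MAPS than in UT EV, and many are long. Beside 39.0% of all measured genes, solute carriers had 15 of 16 measured genes at least 1.5-fold lower in UT EV, with a median of -1.23. Junction genes had 10 of 15, with a median of -0.97. Taken from each gene's own length bin the medians were -0.81 and -0.53, a step that sets the median of all genes in each bin to 0. Before that step the median of all measured genes was -0.21. Slc2a1 was at 0.246 (0.221 to 0.274) times the MAPS level in UT EV and Slc16a1 at 0.270 (0.229 to 0.319) times, while Ly6c1 and Cldn5 were at 1.72 and 1.27 times. Interferon-stimulated genes were mixed, 10 of 22 at least 1.5-fold higher in UT EV and 5 lower, beside 28.4% and 39.0% of all measured genes. Their median was 0.52, or 0.85 from their length bins. Over the genes with a mean of at least 100 CPM that median was 1.32, and with only cells at 0 for every excluding sum of the rule 1.34. Mitochondrial genes took 2.20% of UMIs in the median MAPS member and 0.790 to 0.872% in the others, and haemoglobin genes summed to 2701 and 59985 CPM in MAPS and UT EV. The presence of vesicles, the depth, the length trend and the library cannot be told apart in this comparison. Scaling by median-of-ratios factors moved the median of all genes in this comparison from -0.21 to -0.01. Under it the split of genes past 1.5-fold, higher against lower, was 1029 to 998 in UT EV over MAPS (866 to 1189 by total UMIs), 46 to 82 in IL-1a/TNFa/C1q EV over UT EV (33 to 112) and 142 to 67 in IL-4/C1q EV over IL-1a/TNFa/C1q EV (187 to 40).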

How the data were processed

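Single-cell RNA was measured with 10x Genomics 3′ v3 chemistry in 4 libraries, 1 per group. The deposited files are matrices of raw UMI counts for each gene in each barcode, with no normalization by the authors in them. Per the submitters' processing notes the build was GRCm39 and the tools were Cell Ranger 7.0.0, Seurat 4.1.0 and bcl2fastq 5.0.1; the file headers name Cell Ranger 8.0.1 in place of 7.0.0. The matrices held 56726 barcodes, of which 55902 passed the limits of 500 UMIs, 300 genes and 20% mitochondrial UMIs. Rows that share a gene symbol were added.

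Members' counts were summed per library and given as CPM with exact Poisson 95% intervals; ratios have exact conditional binomial intervals and shares of cells Clopper-Pearson intervals. All of these cover counting error only, and no test was made between groups. Genes with a mean of 50 CPM over the 4 libraries were called measured, and the fold for a count was 1.5. Other cells were gated by sums of UMIs of marker genes, and doublets were called with scrublet in scanpy 1.11.5 but kept. For shares of cells with a UMI, cells were thinned to 1000 UMIs and shallower cells left out. The code for ratios and intervals was run on simulated Poisson counts. These hold no variation between cells or libraries, so the run says nothing on such variation. Computations used Python 3.11.15, numpy 2.4.6, scipy 1.17.1 and pandas 2.3.3.

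Named genes were the genes of the rule and the markers, up to 5 members of each list with the largest ratio and those a sentence on the pathway needs, and the first 6 genes on each side of each library that lay apart from every other library. That last group needed 200 UMIs over the libraries and 30 in the highest one, and left out sex-linked, haemoglobin, mitochondrial and ribosomal protein genes and genes over 3 times higher in microglia. The members and the gene lists were chosen with earlier results of these data known. Alternatives covered scaling, the limit on low genes, the fold, depth, doublets and the limits of the rule. Those on the UMI floor for expression, haemoglobin and microglial genes were chosen after seeing the data. An item of the gene lists is not reported by name here.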

Additional observations from a re-analysis of the deposited data

Results flagged for a closer look

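Some gene lists had medians past 1.5-fold in opposite directions in capillary cells and in another gated cell type of the same libraries. None of these differences was tested, since each group is 1 library. Interferon-stimulated genes in IL-1a/TNFa/C1q EV over UT EV had a median log2 ratio of -1.12 in capillary cells, and of 1.83 in astrocytes and 1.14 in oligodendrocytes. Heat shock genes in IL-4/C1q EV over UT EV had a median of 0.61 in capillary cells and -0.63 in microglia. MHC class II genes in IL-4/C1q EV over IL-1a/TNFa/C1q EV had a median of -1.32 in capillary cells and 0.92 in pericytes. In that pericyte gate the choroid plexus and ependymal genes summed to 30937 CPM in the IL-1a/TNFa/C1q EV library, beside 3206 CPM in IL-4/C1q EV, and the microglial genes to 41986 and 36262 CPM; their part in the median was not tested. Genes of TGF-beta and BMP signalling in UT EV over MAPS had a median of -1.23 in capillary cells and 1.61 in astrocytes. The astrocyte gate also held microglial, choroid plexus and ependymal transcripts, and their part in its medians was not tested.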

How the results depend on the processing

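The share of capillary cells was 8.55% in UT EV with an endothelial sum of at least 8 UMIs. With the UMI floor of the IL-1a/TNFa/C1q EV library, UT EV had 7.72% and IL-4/C1q EV 8.03%, and with cells thinned to 1000 UMIs they had 7.38% and 7.76%. The thinned shares used other limits: at least 2 endothelial UMIs and no microglial, arterial or venous UMI. They therefore differ from the main shares in rule as well as in depth. In the order IL-4/C1q EV over UT EV, IL-1a/TNFa/C1q EV over UT EV, IL-4/C1q EV over IL-1a/TNFa/C1q EV and UT EV over MAPS, the genes past the fold numbered 122, 145, 227 and 2055. They were 338, 462, 624 and 4198 at a mean of 20 CPM, 52, 57, 104 and 1109 at 100 CPM, and 30, 39, 71 and 1326 past 2-fold. In UT EV over MAPS 866 of the 2055 were higher and 1189 lower, against 1193 and 3005 at 20 CPM and 617 and 492 at 100 CPM, and with median-of-ratios size factors 1029 and 998. Thinned members gave 212 and 249 in the first pair.

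The median of the interferon-stimulated genes kept its direction under every alternative run, from 0.84 to 0.98, -1.30 to -1.01 and 2.04 to 2.17 in the comparisons among vesicle libraries, in the same order. In UT EV over MAPS it ran from 0.39 to 1.34, with 1.32 at 100 CPM and 1.34 with all excluding sums at 0. No ratio past 1.5-fold of a gene whose ratio the report prints turned direction. Medians that did were the microglial genes in IL-1a/TNFa/C1q EV over UT EV and 3 lists in UT EV over MAPS. The microglial median was at -0.0073 with members over 2% microglial UMIs left out, a step that uses the same genes. Of the 3 lists in UT EV over MAPS, the interferon receptors and JAK-STAT genes were at 0.076 and the pericyte and smooth muscle genes at -0.56, both at 100 CPM. The choroid plexus genes were at -0.036 at 100 CPM, -0.27 with thinned members, -0.48 with excluding sums at 0, -0.093 without doublets and -0.53 by the mean over cells. The causes were not tested. The 83 members in MAPS limit every value that rests on that library. No paired analysis was possible because each group is 1 library and the labels give no replicate numbers.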
